A study of Mus musculus with 15 samples.

Results

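The 10 genes described here encode proteins that bring glucose into the cell and carry it through glycolysis: the transporter gene Slc2a1, the hexokinase genes Hk1, Hk2 and Hk3, the phosphofructokinase genes Pfkl and Pfkp, the regulator gene Pfkfb3, and Aldoa, Pkm and Ldha of the lower pathway. They were taken by gene symbol from 2 tables of read counts per gene. All 10 had a row among the 34245 genes of the differentiation table and among the 25965 genes of the IL4 table. The cells were grown from bone marrow of male C57BL/6 mice aged 8 to 10 weeks with CSF-1 (colony-stimulating factor 1, on which cells of the macrophage lineage depend for growth), and their RNA was read by Ion Torrent sequencing. Precursors were the non-adherent cells after 2 days in 0.6 ng/ml CSF-1 with 15% fetal calf serum. Immature macrophages had a further 4 days in 12 ng/ml CSF-1 with 10% serum. Mature macrophages had 10 days in all, with 1 day at 0.6 ng/ml, 2 days at 12 ng/ml and 7 days at 120 ng/ml. Serum was 15% at first and 10% later in all mature macrophages, those of the IL4 table included. In the IL4 table, mature macrophages were kept for 48 h more at 120 ng/ml CSF-1 with interleukin 4 (IL4, which T helper cells and others secrete in allergy and worm infection) at 20 ng/ml, or without IL4 (unstimulated). There were 3 libraries in each of the 5 groups, and the labels number their mice 1 to 3. In the IL4 table the labels also give each of the 6 libraries a code of its own, so whether libraries of the same mouse number share an animal is not certain. These are cultures of unsorted marrow, and all 5 groups received CSF-1.

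Glycolysis splits glucose into pyruvate and yields ATP without oxygen. Slc2a1 encodes GLUT1, a glucose carrier of the plasma membrane. Hexokinases phosphorylate glucose and so trap it in the cell; Hk1 and Hk2 bind mitochondria, and Hk3 is the isozyme known from myeloid cells. Phosphofructokinase commits the sugar to glycolysis, and the kinase encoded by Pfkfb3 makes fructose 2,6-bisphosphate, which activates it. Aldolase A (Aldoa) cleaves the sugar bisphosphate that results, pyruvate kinase (Pkm) makes pyruvate, and lactate dehydrogenase A (Ldha) converts pyruvate to lactate. In macrophages, glycolysis is known to rise with inflammatory activation, while IL4-activated macrophages are known for oxidative metabolism that still draws on glucose.

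Many of these genes are known targets of hypoxia-inducible factors, which bind ACGTG or GCGTG. The promoter windows of the 4 genes that changed with IL4 are printed to let their upstream letters be set side by side. Each runs from 250 bases before to 50 bases after the start of the gene in RefSeq, on GRCm38.p6, 5′ to 3′ on the strand of the gene, and ACGTG or GCGTG on either strand is in capitals. The window of Slc2a1 is chr4:119108495-119108794 on the plus strand, that of Hk2 is chr6:82774405-82774704 on the minus strand, that of Pfkp is chr13:6648722-6649021 on the minus strand and that of Pfkl is chr10:78009758-78010057 on the minus strand.
Slc2a1: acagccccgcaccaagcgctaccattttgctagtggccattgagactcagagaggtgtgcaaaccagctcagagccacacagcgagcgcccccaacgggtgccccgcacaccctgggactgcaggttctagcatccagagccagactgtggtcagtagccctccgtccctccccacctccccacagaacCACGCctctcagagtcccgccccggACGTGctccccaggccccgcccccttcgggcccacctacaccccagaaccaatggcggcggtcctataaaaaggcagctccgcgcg
Hk2: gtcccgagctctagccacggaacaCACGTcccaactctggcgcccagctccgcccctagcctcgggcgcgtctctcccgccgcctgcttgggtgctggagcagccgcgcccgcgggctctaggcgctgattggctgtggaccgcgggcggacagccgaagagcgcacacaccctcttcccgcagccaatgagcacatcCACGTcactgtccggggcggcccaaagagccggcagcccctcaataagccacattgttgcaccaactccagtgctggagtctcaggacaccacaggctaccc
Pfkp: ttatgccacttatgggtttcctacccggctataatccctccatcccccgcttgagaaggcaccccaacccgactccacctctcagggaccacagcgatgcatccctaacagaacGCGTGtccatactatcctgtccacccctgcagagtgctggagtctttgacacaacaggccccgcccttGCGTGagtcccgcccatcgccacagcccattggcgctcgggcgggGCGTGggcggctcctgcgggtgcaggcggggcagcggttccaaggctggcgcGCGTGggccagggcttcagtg
Pfkl: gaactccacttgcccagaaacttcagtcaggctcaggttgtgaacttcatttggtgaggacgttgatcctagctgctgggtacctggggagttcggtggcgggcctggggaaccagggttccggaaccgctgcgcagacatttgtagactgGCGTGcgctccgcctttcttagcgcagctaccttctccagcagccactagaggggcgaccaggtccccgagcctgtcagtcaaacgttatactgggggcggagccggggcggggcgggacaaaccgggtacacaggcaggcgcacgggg
The Slc2a1 window held 1 ACGTG and 1 GCGTG, that of Hk2 held 2 ACGTG, that of Pfkp held 4 GCGTG and that of Pfkl held 1 GCGTG. None of these 4 windows held CACGTG, the palindrome whose both strands read ACGTG. Among 32851 windows of the same length, 19.6% held ACGTG, 32.4% held GCGTG and 7.15% held CACGTG. Pfkl, which fell with IL4, and Pfkp, which rose, thus both had GCGTG, and a match is a description of these letters and not of a bound site.

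Reads assigned to genes numbered 7897769 to 22167294 in the 9 differentiation libraries and 2408531 to 4214266 in the 6 libraries of the IL4 table. Levels are given as CPM, a gene's reads scaled to a common library total, with those totals adjusted by TMM, and levels of the separate tables were not compared. Macrophage markers summed to 1573 to 2438 CPM in precursors, 10720 to 15110 in immature and 13990 to 17910 in mature macrophages. All 12 macrophage markers had reads in each of these groups. Precursors also held markers of neutrophils and their progenitors (14880 to 22140 CPM over 14 genes), against 234 to 288 CPM in immature and 2.69 to 5.66 CPM in mature macrophages. B cell, erythroid, and mast cell, basophil and eosinophil markers summed to 152 to 422 CPM in precursors and to under 5 CPM in each immature or mature library. Progenitor markers summed to 328 to 418 CPM in precursors, 7.78 to 8.35 in immature and 2.27 to 4.52 in mature macrophages, and megakaryocyte markers to 270.0 to 626, 112 to 308 and 77.8 to 142 CPM in the same stages. T and NK cell markers stayed under 33 CPM in every library, and the 13 mitochondrially encoded genes, a sign of RNA quality, summed to 3415 to 4486 CPM in precursors, 933 to 1614 in immature and 616 to 3832 in mature macrophages. In such bulk RNA, fewer cells of a type and less RNA per cell cannot be told apart. The IL4 table lists several abundant transcripts at or near 0, with mitochondrially encoded genes at 0 CPM in 5 of 6 libraries. Of 4003 genes with at least 50 CPM in mature macrophages and a row in both tables, 308 (7.69%) had at most 2 reads in every library there, among them the glycolytic genes Gapdh, Pgk1, Pgam1 and Eno1, so their change with IL4 could not be read. None of the 10 genes was among them; the fewest reads were 23, for Pfkl.

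As marrow precursors became macrophages, the genes of glucose entry and of its first steps moved in different directions. Immature macrophages had more Hk3 (2.24-fold) and Pfkp (1.83-fold) than precursors and less Pfkfb3 (0.371-fold), Hk2 (0.415-fold) and Slc2a1 (0.508-fold). Mature macrophages had 4.05-fold more Slc2a1 than immature macrophages. Against precursors, mature macrophages had more Hk3 (2.76-fold), Pkm (2.13-fold), Slc2a1, Pfkp (both 2.05-fold) and Aldoa (1.93-fold), and less Pfkfb3 (0.475-fold). Hk1, Pfkl and Ldha were called in none of the 3 comparisons at an adjusted p under 0.05.

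Between immature macrophages and precursors, 2 of the 10 genes were higher and 3 lower. Of all 13359 genes tested, 49.2% were called, 22.5% higher and 26.6% lower, so neither share stood far from the background. Between mature and immature macrophages, 1 gene was higher and 0 lower in edgeR's quasi-likelihood test, where 14.9% of all genes were called, 7.52% higher and 7.38% lower. At an unadjusted p under 0.05 these were 2 higher and 0 lower, where 4100 of the 13359 genes passed in either direction. DESeq2 and limma also called 1 higher and 0 lower. Between mature macrophages and precursors, 5 were higher and 1 lower, where 54.3% of all genes were called, 25.8% higher and 28.5% lower. The median log2 fold change of the 10 genes was 0.27, 0.33 and 0.76 in these comparisons, in the same order, against -0.07, 0.00 and -0.05 over all genes tested. The libraries of both groups did not overlap for 6, 1 and 7 of the 10 genes, against 65.0%, 32.2% and 64.1% of all genes. These comparisons share libraries, so they are not independent of each other.

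**Figure D1:**
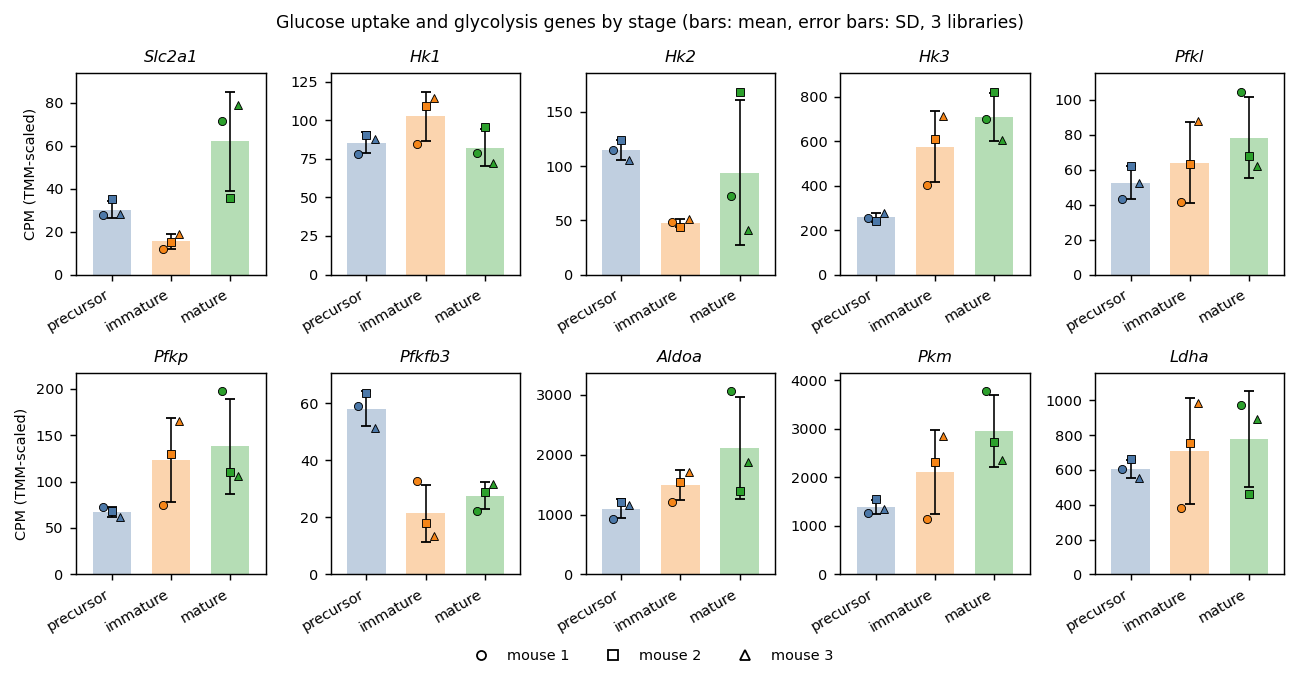
CPM of each gene (vertical axis, from 0) in precursors, immature and mature macrophages; bars are means, error bars SD over 3 libraries, and marker shapes give the mouse number. Slc2a1 dips in immature macrophages and is highest in mature ones, Hk3 is lowest in all 3 precursor libraries, and Pfkfb3 is highest in them.

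Slc2a1 was the gene of the 10 that changed most between immature and mature macrophages. It had 27.6, 35.0 and 28.2 CPM in precursors, 11.9, 15.35 and 19.0 in immature macrophages, and 71.4, 35.8 and 79.2 in mature macrophages. The 3 immature libraries were the lowest of the 9, and mature library 2 lay just above the highest precursor. The log2 fold change was 2.02 ± 0.300 (SE) for mature against immature macrophages (adjusted p = 0.00171) and 1.04 ± 0.288 for mature macrophages against precursors (adjusted p = 0.0110). Immature macrophages against precursors gave -0.98 ± 0.294 (adjusted p = 0.0183), and this call ended without precursor library 2 (adjusted p = 0.0644), immature library 1 (0.0625) or immature library 2 (0.0576).

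Among the hexokinases, Hk3 rose and Hk2 fell in immature macrophages. Hk3 had 254, 239.6 and 277 CPM in precursors, 402, 613 and 713 in immature macrophages, and 698, 824 and 608 in mature macrophages. Every macrophage library was above every precursor library, with adjusted p = 0.00208 for immature macrophages and 0.000407 for mature macrophages against precursors. Mature against immature macrophages was not called, at 0.30 on the log2 scale with a 95% interval of -0.20 to 0.81.

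Hk2, the inducible isozyme of muscle and fat, had 115, 124 and 105 CPM in precursors, against which immature macrophages had 48.2, 43.8 and 50.7 CPM. In mature macrophages its 3 libraries stood at 72.4, 168.7 and 40.95 CPM, so they spanned both earlier groups. The fall in immature macrophages against precursors was -1.27 ± 0.397 (adjusted p = 0.0217), and the call ended without precursor library 1 (0.0521), precursor library 2 (0.0573) or immature library 2 (0.0717). Without mature library 2, mature macrophages were called lower than precursors (-1.01, adjusted p = 0.00795), against -0.29 with all libraries (adjusted p = 0.548), and without mature library 3 they were called higher than immature macrophages (1.34, adjusted p = 0.0135), against 0.98 with all libraries (0.122).

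Hk1, the isozyme found in most tissues, was called in none of the stage comparisons. It had 78.1, 90.6 and 88.2 CPM in precursors, 84.8, 109.3 and 114.6 in immature macrophages, and 79.2, 95.7 and 72.4 in mature macrophages. All 3 groups overlapped. The 95% interval for mature macrophages against precursors ran from -0.45 to 0.33 on the log2 scale.

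To compare levels between genes, CPM were divided by the length of all annotated exons of the gene in kb. On this scale Hk3 made up 70.4% ± 2.78 of the 3 hexokinase genes in precursors, 88.3% ± 2.15 in immature and 88.8% ± 3.37 in mature macrophages (SD, n = 3). The share of Hk2 was 19.5% ± 2.27 in precursors, 4.74% ± 1.40 in immature and 6.76% ± 3.57 in mature macrophages. Hk1 took 10.1% ± 0.808 in precursors, 6.97% ± 0.798 in immature and 4.45% ± 0.228 in mature macrophages. Hk3 was thus the leading hexokinase transcript in all 9 libraries, also by reads without the length (56.2%, 78.8% and 80.7% in precursors, immature and mature macrophages). These shares are descriptions with no test.

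Of the phosphofructokinase genes, Pfkp rose and Pfkl, the liver-type isozyme, was not called. Pfkp, the platelet-type isozyme, had 72.6, 67.9 and 61.5 CPM in precursors, 74.5, 130.2 and 165.0 in immature macrophages, and 197, 109.9 and 106 in mature macrophages. Every macrophage library was above every precursor library, immature library 1 by the least. Its rise against precursors was 0.87 ± 0.307 in immature macrophages (adjusted p = 0.0364) and 1.03 ± 0.308 in mature macrophages (0.0155). The first call ended without each precursor library in turn (0.0724, 0.0846 and 0.1025 without libraries 1, 2 and 3), without immature library 2 (0.0895) or 3 (0.112), and with the mouse number as a block (0.0587). The second call ended without precursor library 3 (0.0537) or mature library 1 (0.0655). Pfkp shares 15.9% of its 31-base words with Pitrm1, a protease gene on the opposite strand that overlaps it, and the strand setting of the counts is not given in the sources used here, so some reads of either gene may be credited to the other. The libraries of Pitrm1 overlapped between the stages: it had 57.5, 61.4 and 48.6 CPM in precursors, 53.4, 83.9 and 70.8 in immature and 57.6, 70.4 and 82.7 CPM in mature macrophages.

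Pfkl had 43.4, 62.1 and 52.2 CPM in precursors, 41.45, 63.2 and 87.7 in immature macrophages, and 104.8, 68.1 and 62.15 in mature macrophages. The lowest mature library was just above the highest precursor, and the log2 fold change of 0.58 had a 95% interval of -0.06 to 1.21. Pfkm, the muscle-type isozyme and not one of the 10, rose to 25.5, 26.2 and 28.6 CPM in immature macrophages, against 7.24, 7.71 and 7.95 CPM in precursors (adjusted p = 5.57e-05). Per kb, the share of Pfkl among the 3 isozyme genes was 51.6% ± 4.94 in precursors, 35.2% ± 3.31 in immature and 36.4% ± 0.248 in mature macrophages. Pfkp took 33.3% ± 4.48, 33.6% ± 4.29 and 31.4% ± 2.40 in the same order of stages. The exons of Pfkp add up to 13.4 kb in the annotation, so by reads alone Pfkp led in all 3 stages, with 52.9%, 56.9% and 54.6%.

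Pfkfb3 was the gene of the 10 that fell most from its precursor level. It had 58.9, 63.6 and 51.4 CPM in precursors, 32.6, 18.0 and 13.55 in immature macrophages, and 22.3, 28.8 and 31.5 in mature macrophages. All 6 macrophage libraries were below all 3 precursor libraries. The log2 fold change against precursors was -1.43 ± 0.294 in immature macrophages (adjusted p = 0.00247) and -1.08 ± 0.291 in mature macrophages (adjusted p = 0.00959), and every alternative run kept both calls.

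Of the lower enzymes, Pkm and Aldoa rose in mature macrophages over precursors and Ldha was not called. Pkm had 1271, 1544 and 1345 CPM in precursors, 1145, 2323 and 2847 in immature macrophages, and 3772, 2727 and 2356 in mature macrophages. Aldoa had 919, 1205 and 1166 CPM in precursors, 1215, 1538 and 1713 in immature macrophages, and 3061, 1395 and 1881 in mature macrophages. For both genes the mature libraries were all above the precursor libraries, at 1.09 ± 0.327 for Pkm (adjusted p = 0.0160) and 0.95 ± 0.294 for Aldoa (0.0189). Both calls ended without precursor library 1 (0.0597 for Pkm and 0.0765 for Aldoa), without mature library 1 (0.0540 and 0.0713) and with limma on the deposited log2 values (0.116 and 0.185). Without immature library 1, Pkm was called higher in immature macrophages than in precursors (0.91, adjusted p = 0.0166), against 0.60 with all libraries (0.146).

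Ldha had 604, 661 and 554 CPM in precursors, 382, 757 and 985 in immature macrophages, and 976, 460.4 and 891 in mature macrophages. Both macrophage groups held libraries above and below all precursors. None of its comparisons was called, and the interval for mature macrophages against precursors was -0.42 to 1.13 on the log2 scale. Some reads of these 3 genes are uncertain, since 34.8% of the 31-base words of Pkm, 22.3% of those of Ldha and 16.9% of those of Aldoa also occur in other annotated genes, mostly pseudogene copies. Gm49759, not annotated as a pseudogene, overlaps Pkm on the same strand and holds 7.10% of the words of Pkm. It had 15978 reads in the differentiation table, against 234498 for Pkm, and no row in the IL4 table. Counts per gene also do not separate the splice forms of Pkm.

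Libraries of the same stage differed across several of the 10 genes at once. Immature library 1 was the lowest of its group in 8 of the 10 genes and the highest in Pfkfb3. Its 13 cell cycle genes summed to 431 CPM, against 1529 and 2088 CPM in immature libraries 2 and 3. Mature library 2 was the lowest of its group in Slc2a1, Aldoa and Ldha and the highest in Hk1, Hk2 and Hk3. Leaving out both libraries, Ldha was also called higher (0.63, adjusted p = 0.0285) and Hk2 lower (-1.01, adjusted p = 0.00909) in mature macrophages than in precursors. Outside the 10 genes, mature library 3 had Gapdh at 1125 CPM, against 74.96 and 91.97 CPM in mature libraries 1 and 2. Mitochondrially encoded genes summed to 3832 CPM in mature library 3, against 886.5 and 616.4 CPM in those 2. The part of the cell cycle and of the other cell types of the precursor cultures in these results was not tested.

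**Figure D2:**
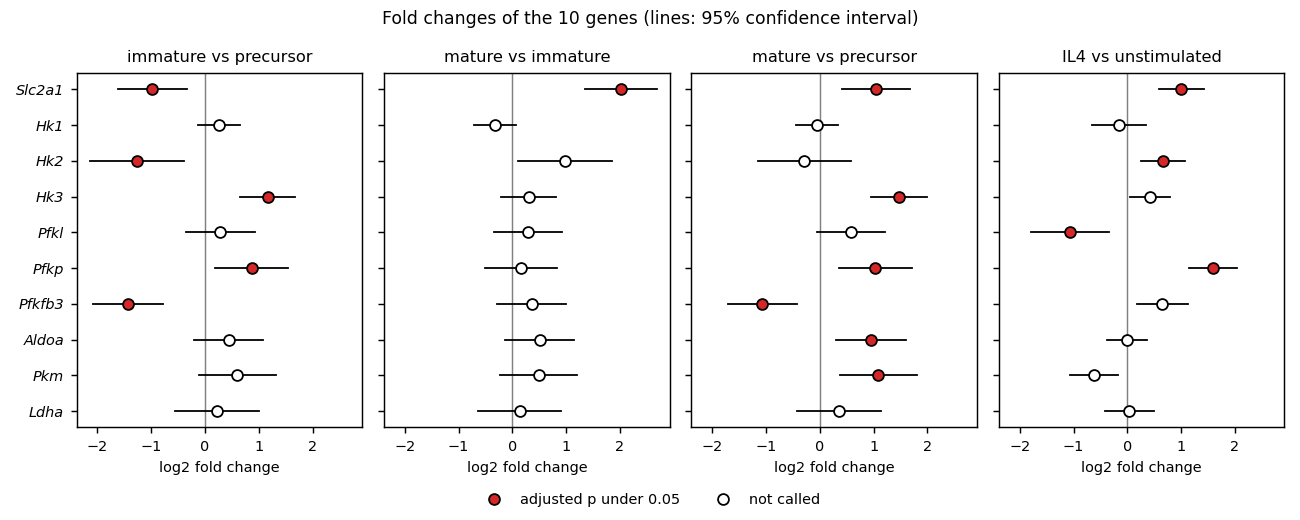
Log2 fold change of each gene (horizontal axis) in the 4 comparisons, the first named group over the second; lines are 95% confidence intervals, and filled points have an adjusted p under 0.05. Slc2a1 is to the left of 0 in immature macrophages against precursors and to the right in the other 3 panels, and Pfkp and Pfkl lie on opposite sides with IL4.

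With IL4, mature macrophages had more Pfkp (3.03-fold), Slc2a1 (2.01-fold) and Hk2 (1.59-fold) than unstimulated cells and less Pfkl (0.480-fold). Aldoa and Ldha, 2 of the most abundant of the 10 genes, gave log2 fold changes of 0.0023 and 0.04. The genes called were 3 higher and 1 lower of 10, where 20.8% of the 8936 genes tested were called, 10.5% higher and 10.3% lower. The median log2 fold change of the 10 genes was 0.23, against 0.0062 over all genes, and the libraries of both groups did not overlap for 7 of 10 genes, against 35.9% of all genes. With the mouse number as a block, 5 genes were higher and 2 lower. That fit also called more of all genes, as counted in the closing section, so the shares above are not its background. Genes of the known IL4 response marked the treated libraries, with 5 of 6 tested higher and Mrc1, the mannose receptor gene also counted among the macrophage markers, lower (-0.86 ± 0.234, adjusted p = 0.0236), and Retnla at 18660, 4740 and 3116 CPM with IL4 and 0 reads in each unstimulated library.

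**Figure D3:**
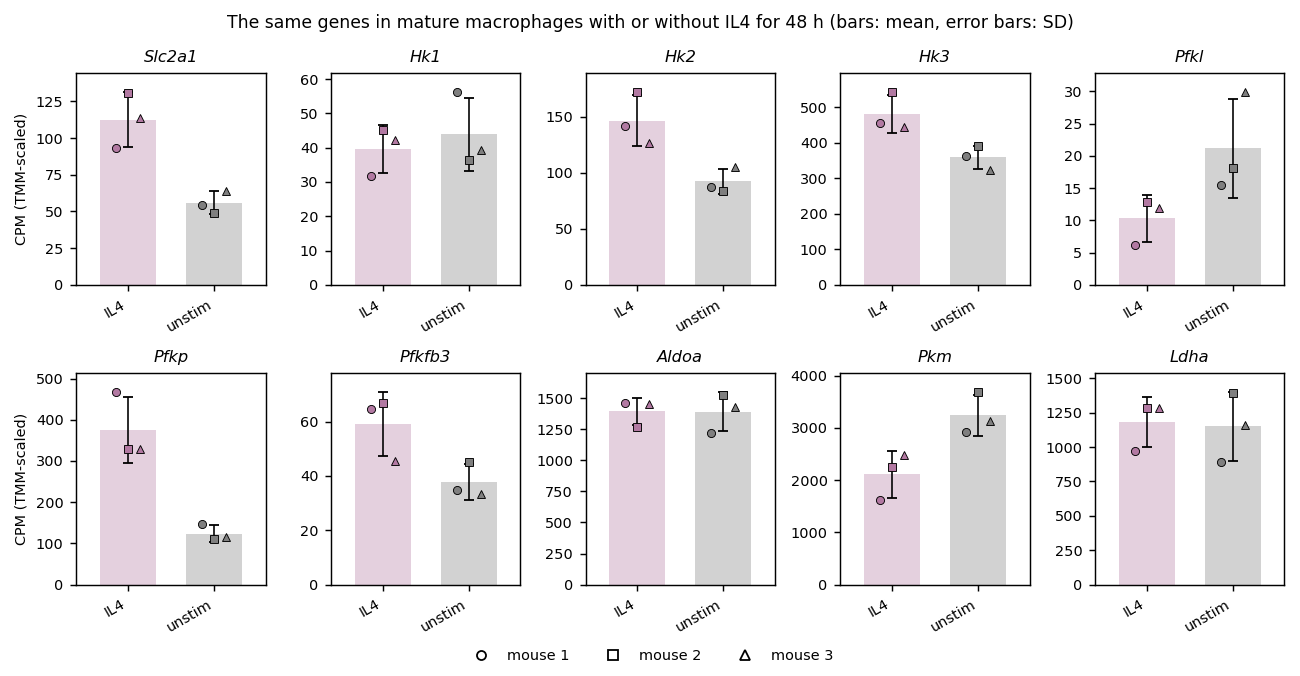
CPM of each gene (vertical axis, from 0) in mature macrophages with IL4 for 48 h (left) and without (right); bars are means, error bars SD over 3 libraries, and marker shapes give the mouse number. Pfkp, Slc2a1 and Hk2 are above all unstimulated libraries with IL4, and Pfkl is below them.

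Slc2a1 had 93.45, 130.4 and 114 CPM with IL4, against 54.7, 48.6 and 64.1 CPM in unstimulated macrophages. The lowest IL4 library was well above the highest unstimulated one. The log2 fold change was 1.01 ± 0.192 (adjusted p = 0.00337), and the call held in every alternative run, with adjusted p up to 0.0207.

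Hk2 had 142, 172 and 126 CPM with IL4, against 87.8, 84.1 and 105.3 CPM in unstimulated macrophages. The groups did not overlap, and the log2 fold change was 0.67 ± 0.182 (adjusted p = 0.0244). The call ended without unstimulated library 1 (0.0679) or 2 (0.0823), without IL4 library 2 (0.126) and without both libraries numbered mouse 1 (0.0626). Hk3 had 455, 542 and 444 CPM with IL4, against 362.5, 389.8 and 324 CPM in unstimulated macrophages. Its libraries did not overlap either, but at 0.42 ± 0.166 it was not called (adjusted p = 0.103), except with the mouse number as a block (0.0320).

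Hk1 had 31.6, 45.0 and 42.1 CPM with IL4, against 56.1, 36.3 and 39.2 CPM in unstimulated macrophages. These overlapped, with a 95% interval of -0.66 to 0.34 on the log2 scale. Per kb, the shares of Hk1 did not overlap between the groups, at 2.45%, 2.91% and 3.37% with IL4 and 5.49%, 3.42% and 4.17% without. Those of Hk3 and Hk2 overlapped: Hk3 took 81.7% ± 0.495 with IL4 and 82.4% ± 2.72 without, and Hk2 took 15.4% ± 0.794 with IL4 and 13.2% ± 2.48 without (SD, n = 3).

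The phosphofructokinase genes showed the clearest change of balance. Pfkp had 467, 330.0 and 329 CPM with IL4, against 146, 110.0 and 115 CPM in unstimulated macrophages. All 3 IL4 libraries were above 2 times the highest unstimulated library. The log2 fold change was 1.60 ± 0.203 (adjusted p = 0.000249), and the call held in every alternative run. The overlapping Pitrm1 stood at 21.7, 12.9 and 10.9 CPM with IL4 and 22.8, 17.7 and 11.3 CPM in unstimulated macrophages, below Pfkp in each library.

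Pfkl had 6.16, 12.9 and 11.85 CPM with IL4, against 15.5, 18.1 and 29.8 CPM in unstimulated macrophages. These rest on 23, 39 and 36 reads with IL4 and on 66, 44 and 121 reads without. The groups did not overlap and the log2 fold change was -1.06 ± 0.330 (adjusted p = 0.0432), but the call ended without unstimulated library 2 (0.0780) or 3 (0.176) and without IL4 library 1 (0.103), 2 (0.0530) or 3 (0.0680). With the mouse number as a block it had an adjusted p of 0.00101. Per kb, Pfkp made up 84.4% ± 6.27 of the 3 isozyme genes with IL4 and 51.0% ± 6.08 without, Pfkl 4.88% with IL4 and 17.5% without, and Pfkm 10.7% with IL4 and 31.6% without. The shares of Pfkp did not overlap between the groups, and by reads alone they were 94.2% with IL4 and 75.3% without. Of the 3 genes only Pfkp was called higher, and Pfkm gave -0.76 ± 0.263 (adjusted p = 0.0663).

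**Figure D4:**
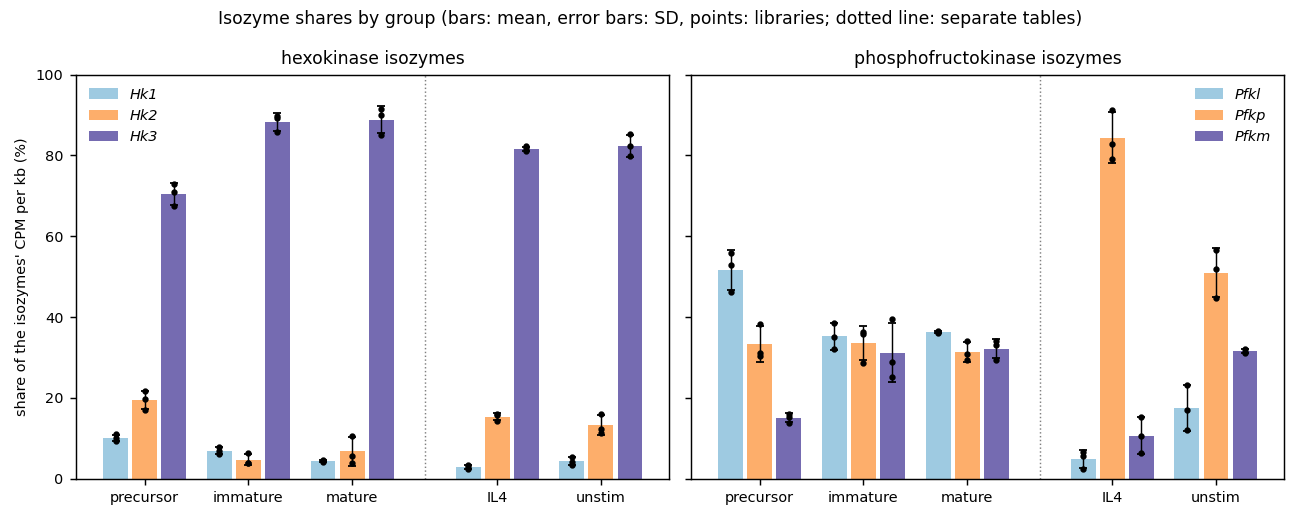
Share of each isozyme gene in the summed CPM per kb of its family (vertical axis, %), for hexokinases (left) and phosphofructokinases (right); bars are means, error bars SD, points the 3 libraries, and the dotted line parts the separate tables. Hk3 leads the hexokinases in every group, and Pfkp takes 84.4% of the phosphofructokinase genes with IL4 and 51.0% without.

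Pfkfb3 had 64.8, 66.85 and 45.4 CPM with IL4, against 35.0, 45.3 and 33.3 CPM in unstimulated macrophages. The lowest IL4 library was level with the highest unstimulated one, and at 0.65 ± 0.214 the gene was not called (adjusted p = 0.0540); it was called with the mouse number as a block (0.00710), without a filter on low counts (0.0494) and without IL4 library 3 (0.0306). Pkm had 1611, 2243 and 2486 CPM with IL4, against 2914, 3684 and 3135 CPM in unstimulated macrophages. All 3 IL4 libraries were below the unstimulated ones, yet at -0.62 ± 0.203 Pkm was not called (adjusted p = 0.0535). It was called lower with the mouse number as a block (0.00497), with DESeq2 (0.0177), with limma on the deposited log2 values (0.00901) and without a filter on low counts (0.0412).

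Aldoa had 1459, 1271 and 1451 CPM with IL4, against 1220, 1528 and 1426 CPM in unstimulated macrophages. Ldha had 972, 1286 and 1287 CPM with IL4, against 894, 1391 and 1164 CPM in unstimulated macrophages. Both genes overlapped between the groups, with 95% intervals of -0.37 to 0.37 for Aldoa and -0.41 to 0.49 for Ldha on the log2 scale. Beside these results, the 13 cell cycle genes summed to 157 to 386 CPM with IL4 and 526 to 801 CPM without, with 9 of 11 tested lower. Macrophage markers summed to 6177 to 7162 CPM with IL4 and 7917 to 11510 CPM without. Their part in the results was not tested. Neutrophil and granulocyte precursor markers were at 13.9 to 21.2 CPM with IL4 and 13.1 to 26.4 CPM without, with 10 of 14 genes at 0 reads in each group.

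The order of the 10 genes by level per kb was alike at its top in every group. Pkm and Aldoa were the first pair in all 5 groups, followed by Ldha and Hk3. In mature macrophages Pkm averaged 590.2, Aldoa 569, Ldha 234 and Hk3 193 CPM per kb, and Pfkfb3 was lowest with 3.64. Pkm and Aldoa there differed by less than the SD of either (147 and 231), and Ldha and Hk3 by less than the SD of Ldha (83.5) but more than that of Hk3 (29.6). In precursors Aldoa averaged 296 and Pkm 277 CPM per kb, which their spread does not part, and Pfkp was lowest with 5.02. In immature macrophages Pkm averaged 421 ± 174 and Aldoa 401 ± 68.1 CPM per kb (SD, n = 3), which their spread does not part either, and Pfkfb3 was last with 2.83. The length used for Aldoa was 3.71 kb in differentiation, where the row had no identifier and 2 gene models of that symbol were joined, and 2.911 kb in the IL4 table. The order of Pkm and Aldoa in immature and mature macrophages therefore depends on that length. In precursors Aldoa had the higher mean, and the shorter length would raise it further. With IL4, Aldoa averaged 479 and Pkm 423 CPM per kb, and Pfkl was last with 1.54; without IL4, Pkm averaged 649, Aldoa 478 and Pfkl 3.17 CPM per kb. Slc2a1 was 5th with IL4 (32.1 CPM per kb), 5th in unstimulated cells (15.9) and 5th in mature macrophages (17.7), but 9th in immature macrophages (4.40). In precursors it averaged 8.63. The spread does not part Slc2a1 from Hk2 in mature macrophages (15.8 ± 11.2, SD) or unstimulated cells (15.5 ± 1.90). With IL4 the spread does not part Slc2a1 from Pfkp (28.0 ± 5.92) on this scale. The length used for Pfkp was 13.4 kb, while its protein-coding transcripts hold 4517 different 31-base words. Its level per kb may thus be understated, and the places of Pfkp and Slc2a1 in this order depend on that length. Without the length, Pfkp averaged 375 and Slc2a1 113 CPM with IL4.

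Other genes of glucose handling moved beside the 10. Shares over all genes tested were 22.5% higher and 26.6% lower in immature macrophages against precursors. Mature macrophages had 7.52% and 7.38% against immature macrophages and 25.8% and 28.5% against precursors. With IL4 the shares were 10.5% and 10.3%. At an unadjusted p under 0.05, 7462, 4100 and 7988 of 13359 genes passed in the stage comparisons in turn. With IL4, 2811 of 8936 passed. Of 4 tested glucose transporter genes other than Slc2a1, 2 were higher and 1 lower in immature macrophages than in precursors, 0 were called between mature and immature macrophages by edgeR (1 higher and 1 lower at an unadjusted p under 0.05, 0 higher and 1 lower by DESeq2 and 0 by limma), and 2 were higher and 1 lower in mature macrophages than in precursors. Slc2a3 (GLUT3, a high-affinity glucose carrier) fell to 11.9, 16.4 and 19.0 CPM in immature macrophages, against 153.2, 153.6 and 241.5 CPM in precursors. Slc2a8, a glucose carrier of inner membranes, rose to 34.6, 36.6 and 30.9 CPM in immature macrophages, against 6.32, 7.75 and 6.74 CPM in precursors. With IL4, edgeR, DESeq2 and limma each called 0 of 4 higher and 2 lower (0 higher and 3 lower at an unadjusted p): Slc2a9, which carries urate, at -1.36 ± 0.198 (adjusted p = 0.000623) and Slc2a8 at -0.85 ± 0.194 (adjusted p = 0.00940). Slc2a1 thus rose with IL4 while Slc2a8 and Slc2a9 fell.

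Of 18 further glycolytic and lactate export genes tested, 5 were higher and 6 lower in immature macrophages than in precursors, 1 higher and 2 lower in mature than in immature macrophages, and 4 higher and 5 lower in mature macrophages than in precursors. As shares these were 27.8% and 33.3%, 5.56% and 11.1%, and 22.2% and 27.8%, near those of all genes given above. Limma called 0 lower in mature than in immature macrophages and 8 lower in mature macrophages than in precursors. Adpgk, a glucokinase that uses ADP, fell to 24.9, 29.2 and 30.2 CPM in immature macrophages, against 352, 331 and 480 CPM in precursors. Aldoc, the brain-type aldolase, rose to 53.98, 87.6 and 67.7 CPM in immature macrophages, against 5.53, 2.71 and 3.13 CPM in precursors. With IL4, 1 of 11 tested was higher and 1 lower. Aldoc fell to 6.43, 22.5 and 31.6 CPM with IL4, against 108.4, 98.5 and 209 CPM without (adjusted p = 0.00147), while the libraries of Aldoa overlapped. Slc16a1, a lactate and pyruvate carrier, rose to 23.03, 18.2 and 20.7 CPM with IL4, against 7.27, 7.42 and 9.37 CPM without (adjusted p = 0.00124).

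Among the 4 other genes that set fructose 2,6-bisphosphate, Pfkfb4 rose with IL4 to 36.4, 40.7 and 39.2 CPM, against 16.0, 14.0 and 16.3 CPM without (adjusted p = 0.000534), and it was the only one tested there. In differentiation, 1 of the 4 was higher and 1 lower in immature macrophages than in precursors, with Pfkfb2 at 1.33 ± 0.259 and Pfkfb4 at -0.56 ± 0.212. Tigar, a phosphatase that lowers fructose 2,6-bisphosphate, was the 1 called in mature against immature macrophages, at 1.54 ± 0.341 (adjusted p = 0.0129). In mature macrophages against precursors 1 was higher, Pfkfb2, at 1.62 ± 0.260. DESeq2 called 2 lower in immature macrophages and 1 lower in mature macrophages against precursors, and limma 2 higher and 1 lower in the mature ones. The direction of Pfkfb3 in differentiation was thus not shared by Pfkfb2. Pfkfb4 was lower than in precursors, as Pfkfb3 was, though edgeR did not call it in mature macrophages (-0.54 ± 0.212, adjusted p = 0.0513).

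Downstream of pyruvate, 7 of 13 tested genes of its entry into mitochondria were higher and 0 lower in immature macrophages than in precursors by edgeR (8 and 1 at an unadjusted p, 7 and 1 by DESeq2, 7 and 0 by limma), as were 9 of 17 genes of the tricarboxylic acid cycle, with 2 lower. In mature macrophages against precursors the counts were 6 higher and 2 lower (1 by limma) of 13 and 9 higher and 1 lower (2 by limma) of 17. Over all genes tested, 22.5% were higher and 26.6% lower in immature macrophages against precursors, and 25.8% and 28.5% in mature ones. Pdk1, a kinase that inhibits pyruvate dehydrogenase, rose to 41.1, 100.6 and 125.8 CPM in immature macrophages, against 28.7, 32.55 and 38.0 CPM in precursors, and Sdhc of succinate dehydrogenase rose to 103.3, 120.5 and 154 CPM, against 46.0, 50.6 and 40.1 CPM in precursors. Of 7 pentose phosphate genes, edgeR called 0 higher and 3 lower in both of these comparisons, Pgd and Rpia among them, and 0 were higher at an unadjusted p, by DESeq2 or by limma. In mature macrophages against precursors, DESeq2 and limma each called 5 of the 7 lower. Mature against immature macrophages gave 1 lower of 13 (Pdp2), 0 called of 17 and 0 called of 7 by edgeR; at an unadjusted p under 0.05 these were 2 higher and 2 lower, 2 higher and 2 lower, and 2 higher. DESeq2 called 1 higher and 1 lower of the 17 and 1 higher of the 7 there, and limma 0 of either list. With IL4, 1 of 11, 1 of 16 and 0 of 7 were higher in these lists by edgeR, DESeq2 and limma alike. The 2 called were Pdp1 at 0.84 ± 0.235 and Suclg1 at 0.54 ± 0.166. At an unadjusted p the lists gave 2 higher and 2 lower of 11, 4 higher and 0 lower of 16 and 0 of 7.

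Of 4 tested gluconeogenesis genes, 3 were higher and 1 lower with IL4, among them Pck2 at 1.74 ± 0.270, G6pc3 at 0.68 ± 0.180 and Pcx at -2.07 ± 0.312. Over all genes tested, 10.5% were higher and 10.3% lower with IL4. Of 9 tested glycogen genes, edgeR called 0 higher with IL4 (1 at an unadjusted p, 1 by DESeq2, 0 by limma) and 3 lower: Gbe1 (the branching enzyme), Pygl (glycogen phosphorylase) and Gyg (glycogenin). In immature macrophages against precursors these lists had 2 higher of 4 (Pck2 and Pcx) and 3 higher and 4 lower of 10. Mature against immature macrophages gave 1 lower in each list, Pck2 and Gyg, and mature macrophages against precursors gave 1 higher and 1 lower of 4 (Pcx and G6pc3) and 2 higher and 4 lower of 10. The shares of all genes higher and lower in these stage comparisons were, in turn, 22.5% and 26.6%, 7.52% and 7.38%, and 25.8% and 28.5%.

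Of 12 tested regulators of glycolytic genes, 4 were higher and 0 lower with IL4 by edgeR, DESeq2 and limma (5 and 1 at an unadjusted p), and 3 higher and 3 lower in immature macrophages than in precursors. Hif1a, which encodes hypoxia-inducible factor 1 alpha, was not called with IL4, at 66.4, 49.0 and 45.4 CPM with IL4 and 89.4, 82.0 and 51.3 CPM without. Epas1, which encodes hypoxia-inducible factor 2 alpha, rose to 60.2, 31.1 and 92.6 CPM in mature macrophages, against 4.73, 6.04 and 7.92 CPM in immature macrophages (adjusted p = 0.00111), 1 higher (2 by DESeq2) and 3 lower being called there. Irf4, a transcription factor of the IL4 response, rose to 86.0, 124 and 72.8 CPM with IL4, against 7.04, 4.12 and 4.93 CPM without. Of the hypoxia response genes outside glycolysis, 1 of 14 was higher with IL4 (Vegfa, 1.85 ± 0.375) and 1 lower (Ddit4, -1.26 ± 0.378) by edgeR, while DESeq2 and limma called 0 lower and 3 were lower at an unadjusted p. At 7.14% each way by edgeR, this list was not above the shares of all genes with IL4. Between mature and immature macrophages, 2 of 15 were higher (P4ha1 and P4ha2) and 2 lower (Vegfa and Ndrg1), with 4 higher by DESeq2. In immature macrophages against precursors 2 hypoxia genes were higher (4 by limma) and 3 lower of 15, and in mature macrophages against precursors 4 higher and 3 lower of 15, with 3 higher and 5 lower (3 by limma) regulators of 12. In mature macrophages against precursors, 25.8% of all genes tested were higher and 28.5% lower.

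**Figure D5:**
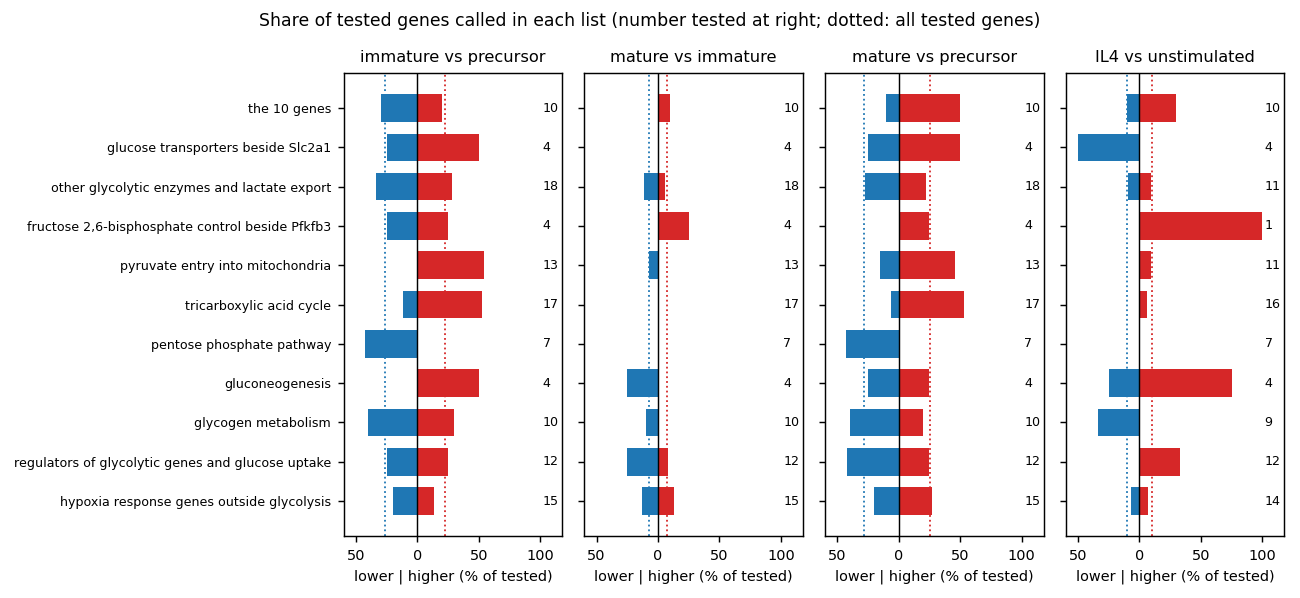
Share of tested genes called higher (right) or lower (left) in each list (horizontal axis, %), for the 4 comparisons; dotted lines give the shares over all tested genes, and the number at the right is how many were tested. The tricarboxylic acid cycle list has 52.9% higher in immature macrophages against precursors, where 22.5% of all genes were higher.

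Across the 9 differentiation libraries, Slc2a1 was most like Cdk6, Gnptab and Ppp1r13b among 8724 genes, with a Pearson r of log2 CPM of 0.968, 0.960 and 0.960. Cdk6 had 181, 192 and 168 CPM in precursors, 56.8, 80.4 and 112 in immature and 276, 223 and 446 CPM in mature macrophages, so it was low in the same group as Slc2a1. Hk3 was most like Nqo2 (0.986), Cetn2 (0.980) and Mdh1 (0.980). Hk2 was most like Pgs1 (0.961), Adssl1 (0.943) and Trim56 (0.940), which were high in mature library 2 as Hk2 was. Hk1 was most like Idh2 (0.970), Ptpa (0.923) and Ndufb11 (0.904). Among the 10 genes themselves, Pfkl and Pkm had an r of 0.932, Pfkp and Pkm 0.928, Pfkp and Pfkfb3 -0.869 and Hk3 and Pfkfb3 -0.866. The libraries fall into 3 stages and share their scaling, so these values describe shared patterns of stage and library.

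The authors' deposited table for immature macrophages against precursors lists 5 of the 10 genes, with the lowest adjusted p for Hk2 (1.58e-07). The authors' deposited table for mature against immature macrophages lists 1, Slc2a1 (9.07e-06), and the authors' deposited table for mature macrophages against precursors lists 6, with the lowest for Hk3 (6.90e-08). With IL4 the authors' deposited table lists Pfkp (2.53e-10), Slc2a1 (0.000198), Hk2 (0.0296) and Pfkl (0.0389). In each comparison the listed members are the genes called above.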

How the data were processed

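RNA of 5 groups of cultured mouse marrow cells was sequenced by Ion Torrent, 3 libraries a group, from 1 µg of total RNA taken by column with DNase. Per the submitters' processing notes, reads were aligned with HISAT2 2.0.5, edgeR was used, and GRCm39.p6 and GRCm38.p6 are the builds named. Not given in the sources used here are the program that counted reads, its strand setting and the edgeR version. What the authors deposited are unnormalized counts of reads for each gene (9 differentiation libraries in 1 table, the 6 libraries with or without IL4 in another), log2 RPM values of the same genes, and lists of genes with an adjusted p-value (FDR) under 0.05. Gene lengths are the joined exons of GENCODE M21, on GRCm38; Aldoa had no identifier in the differentiation table and was matched by symbol.

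Here edgeR 4.0.16 in R 4.3.3 was run on the counts: filterByExpr by group, minimum count 10 (13359 and 8936 genes kept), TMM scaling, glmQLFit and glmQLFTest without covariates, the 9 libraries in 1 fit and the 6 in another, and Benjamini-Hochberg adjustment over all genes tested, with calls at an adjusted p under 0.05. The scripts were tested on simulated data. Of simulated log2 changes of 1, calls recovered 19.2% for immature macrophages against precursors and 16.5% for mature against immature macrophages. They recovered 9.0% for mature macrophages against precursors and 66.7% with IL4. False calls were 2 of 97, 3 of 99, 4 of 85 and 18 of 183 in the same order. A gene not called may thus still have changed by that much. The 10 genes and all lists were chosen with earlier results of these data known. The text names each of the 10 genes and up to 3 called genes of a pathway list by lowest p (minimum 5 CPM in the higher group). For likeness it names the 3 genes with the highest r of log2 CPM (prior count 2) among genes averaging 10 CPM or more. Hif1a, Pitrm1, Gm49759, Gapdh in mature macrophages, and Mrc1 and Pfkm with IL4, were named after their values were seen.

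Labels number the mice 1 to 3 in each group. In the IL4 table, deviations from the group means correlated by 0.591, 0.175 and 0.413 between libraries of the same number. Between others they correlated by -0.487 to 0.247. The labels give each of these 6 libraries its own code and do not say that a number marks 1 animal. The main fit did not pair the libraries, and the mouse number entered only as a block in an alternative run. In differentiation the same numbers gave -0.129 to 0.165, and there any pairing rests on the titles alone. The alternatives were DESeq2 1.42.0, RLE scaling, 1 CPM in 3 libraries or no filter on low values, limma 3.58.1 on the deposited log2 RPM, the mouse as a replicate block, the 6 libraries compared alone, and leaving out each library. Leaving out immature library 1 with mature library 2, and both libraries numbered mouse 1 in the IL4 table, was added after the data were seen.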

Additional observations from a re-analysis of the deposited data

How the results depend on the processing

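Hk3 and Pfkfb3 against precursors, Slc2a1 in mature macrophages against either earlier stage and with IL4, and Pfkp with IL4 kept their calls in every alternative run. In immature macrophages against precursors, 1 gene was called higher with the replicate block, and leaving out each library gave 1 to 3 higher and 1 to 3 lower. In mature against immature macrophages it gave 1 to 2 higher; all genes called numbered 1007 to 2702 when a library was left out, 1245 with the 6 libraries compared alone and 1053 without immature library 1 and mature library 2, against 1991. In mature macrophages against precursors, limma on log2 RPM called 3 higher, leaving out each library 2 to 5 higher and 1 to 2 lower, and leaving out immature library 1 and mature library 2 called 2 lower. With IL4, the replicate block called 5 higher, 2 lower and 2883 genes in all, against 1855; DESeq2, no filter and limma each called 2 lower, and leaving out each library called 2 to 4 higher and 0 to 1 lower. The block changed no other call than those given beside the results. By reads without the length, the share of Hk3 was 56.2%, 78.8% and 80.7% in precursors, immature and mature macrophages and 72.1% with IL4 and 72.4% without; that of Pfkp was 52.9%, 56.9% and 54.6%, and 94.2% with IL4 and 75.3% without. The cause of these differences between settings was not tested.

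Uncalled genes also turned sign. In immature macrophages against precursors, Ldha was -0.12 with limma and -0.043 to 0.53 when 1 library was left out. In mature against immature macrophages, Hk3 was -0.022 without immature library 1 and mature library 2, and leaving out 1 library gave -0.17 to 0.41 for Ldha and -0.19 to 0.39 for Pfkp, with -0.10 for Pfkp without immature library 1 and -0.07 for Ldha without mature library 1. In mature macrophages against precursors, Ldha was -0.047 with limma, and without mature library 3 Hk2 was 0.078 and Hk1 0.038, of ranges from -1.01 and from -0.17 when 1 library was left out. With IL4, Aldoa was -0.0039 with RLE, -0.0038 with DESeq2, -0.20 with limma and -0.12 without the libraries numbered mouse 1, and -0.085 to 0.077 when 1 library was left out; Ldha was -0.19 with limma and -0.11 to 0.20 when 1 library was left out; Hk1 was 0.20 without mouse 1 and -0.27 to 0.061 when 1 library was left out. Depth limits Pfkl most, at 23 to 121 reads a library in the IL4 table.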
